A study of Mus musculus with 3 samples.

Results

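The regions described here are the CHD7 peaks at gene ends that also carry SOX2 in the otocyst, the epithelial sac that gives rise to the inner ear. They were chosen by position and by the peak lists themselves: a CHD7 peak on chromosomes 1 to 19 or X was taken when it shared at least 1 base with a SOX2 peak and had an end of a protein-coding gene inside it or no more than 1 kb away. Of 32662 CHD7 peaks on these chromosomes 5176 met both conditions, or 15.8%, and the list held 33035 CHD7 peaks in all. The presence of both peaks is therefore what chose these regions and is not a result about them. The other 27486 CHD7 peaks were 863 at gene ends without SOX2, 6016 in gene bodies with SOX2, 3741 in gene bodies without it, 10170 between genes with SOX2 and 6696 between genes without it.

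The data come from CUT&Tag, a method in which an antibody brings the transposase Tn5 to a protein on chromatin and Tn5 cuts and tags the DNA nearby. Otocysts of wild-type mice at E10.5 were dissected, 34 of them were pooled and dissociated, and the cells were split in 3 equal parts. The CHD7 sample received anti-CHD7, the SOX2 sample received anti-SOX2, and a sample without primary antibody is not analysed here. Each antibody has 1 library from the same pool of otocysts, so no value below has a replicate check, no test was made, and intervals (exact binomial, 95%) cover counting error of peaks or genes only. Read depth is unknown. The peak lists hold no expression values, so the tissue label could not be checked against RNA markers, and the other cell types the dissection could hold are described by their genes further on.

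CHD7 is a chromatin remodeler that uses ATP to move nucleosomes, and loss of 1 copy of its gene causes CHARGE syndrome in humans, in which ear malformation is common. SOX2 is a transcription factor of the HMG-box group that marks and maintains the prosensory cells of the ear, from which hair cells and supporting cells arise. Transcription of most broadly active and developmental genes starts in CpG islands, stretches rich in G, C and the dinucleotide CpG, where nucleosomes are depleted and Tn5 can reach DNA readily.

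To show what the regions look like in sequence, 6 promoters that overlap such peaks are printed, 5′ to 3′ on the gene's own strand. Each runs from 250 bases before the transcription start to 50 bases after it (RefSeq, GRCm38.p6, the assembly also called mm10). At Sox2 only part of the printed stretch lies inside a CHD7 peak, and the start itself falls between neighbouring CHD7 peaks. Capitals mark SOX words (ACAAAG or ACAATG), GC boxes (GGGCGG) and CCAAT boxes, on either strand. The first 3 hold a SOX word and the last 3 do not, although SOX2 signal was present at all 6.
Sox2, a gene encoding SOX2 itself, chr3:34649745-34650044, plus strand: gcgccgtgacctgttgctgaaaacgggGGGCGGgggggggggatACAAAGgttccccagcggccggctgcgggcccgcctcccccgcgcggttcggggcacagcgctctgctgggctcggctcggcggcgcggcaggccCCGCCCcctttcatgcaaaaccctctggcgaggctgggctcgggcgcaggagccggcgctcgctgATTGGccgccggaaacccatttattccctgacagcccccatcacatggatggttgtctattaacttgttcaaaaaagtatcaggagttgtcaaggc
Hes6, a Notch-related HES factor of early neurons, chr1:91413989-91414288, minus strand: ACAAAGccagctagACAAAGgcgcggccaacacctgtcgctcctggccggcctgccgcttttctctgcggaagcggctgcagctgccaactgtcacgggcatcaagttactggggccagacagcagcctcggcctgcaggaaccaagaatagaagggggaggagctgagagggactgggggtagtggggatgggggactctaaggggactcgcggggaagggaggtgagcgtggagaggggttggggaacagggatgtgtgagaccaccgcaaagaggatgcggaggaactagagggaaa
Kdm6a, a histone H3 lysine demethylase, chrX:18162325-18162624, plus strand: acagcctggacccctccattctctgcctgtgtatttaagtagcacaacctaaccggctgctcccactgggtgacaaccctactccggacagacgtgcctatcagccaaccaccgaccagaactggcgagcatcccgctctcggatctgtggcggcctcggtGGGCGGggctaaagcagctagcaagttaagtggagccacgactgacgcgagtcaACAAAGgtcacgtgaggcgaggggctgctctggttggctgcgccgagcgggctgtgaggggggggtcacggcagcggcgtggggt
Myo6, the unconventional myosin of hair cells, chr9:80164784-80165083, plus strand: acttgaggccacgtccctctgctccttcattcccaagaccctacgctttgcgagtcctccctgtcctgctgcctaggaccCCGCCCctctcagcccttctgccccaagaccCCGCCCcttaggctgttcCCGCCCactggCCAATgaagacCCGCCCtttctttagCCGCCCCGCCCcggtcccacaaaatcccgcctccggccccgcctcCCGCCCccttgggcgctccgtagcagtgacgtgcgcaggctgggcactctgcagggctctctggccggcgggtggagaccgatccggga
Jun, an AP-1 subunit, chr4:95052173-95052472, minus strand: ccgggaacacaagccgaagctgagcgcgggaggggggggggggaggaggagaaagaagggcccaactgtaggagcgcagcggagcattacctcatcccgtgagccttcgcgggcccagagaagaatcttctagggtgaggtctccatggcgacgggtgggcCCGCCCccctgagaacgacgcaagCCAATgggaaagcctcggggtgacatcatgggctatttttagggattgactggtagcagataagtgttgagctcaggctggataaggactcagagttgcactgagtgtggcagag
Dusp6, a phosphatase that restrains FGF and ERK signalling, chr10:99262981-99263280, plus strand: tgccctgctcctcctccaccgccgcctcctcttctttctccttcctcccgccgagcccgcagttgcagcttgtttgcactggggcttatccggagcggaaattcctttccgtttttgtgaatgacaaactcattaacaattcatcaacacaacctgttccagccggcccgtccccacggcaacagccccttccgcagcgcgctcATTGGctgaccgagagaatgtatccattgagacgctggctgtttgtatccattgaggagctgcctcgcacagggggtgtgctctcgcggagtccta
The Sox2 promoter had 66.3% G or C and 27 CpG, and the Dusp6 promoter had 57.3% and 19 CpG. Myo6 held 8 of the marked words in 300 bases, 7 of them GC boxes, and Dusp6 held 1, a CCAAT box. Counted from the start, with minus for upstream, Hes6 carried ACAAAG at -250 and -236, and the Sox2 promoter carried 1 ACAAAG, at -206.

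The peaks at gene ends with SOX2 were wider than the other CHD7 peaks and similar to them in height. Their median width was 1150 bases (interquartile range 900 to 1450), against 900 bases (600 to 1200) for the other CHD7 peaks. Their median total signal, the authors' coverage signal summed over the bases of a peak, was 788 (574 to 1153), against 633 (510.1 to 884) for the others, a ratio of 1.24. Per base of peak the order turned, with 0.732 at gene ends with SOX2 against 0.753 in the others, a ratio of 0.972. The highest signal reached in a peak had a median of 20 steps in both groups, where a step is the smallest increment found in the list, 0.0911. The difference in total signal was thus accompanied by a difference in width and by none in median height.

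At gene ends the CHD7 peaks without SOX2 were weaker. Their median total signal was 551 (483 to 679) and their signal per base 0.595, so gene ends with SOX2 had 1.43 and 1.23 times as much. Against CHD7 peaks with SOX2 in gene bodies (median total 733) or between genes (719.6) the ratios were only 1.07 and 1.09. Among peaks of like width, those over 600 and up to 900 bases had medians of 615 at gene ends with SOX2 and 610.3 at other places with SOX2. Over 900 and up to 1200 bases the medians were 726 and 679, and over 1200 and up to 1600 bases 911 and 865. For peaks of 600 bases or less the order was the opposite, with 537 at gene ends with SOX2 and 633 at other places with SOX2. Wide peaks over 1600 bases had 1325 at gene ends with SOX2, against 1523 at other places with SOX2 and 719.6 at gene ends without SOX2. At gene ends the share of CHD7 peaks with SOX2 was 65.0% in the narrowest width class and 92.7% in the widest, and away from gene ends 47.7% and 85.1%. Over all CHD7 peaks that share was 65.4%. Since a wider peak meets a SOX2 peak more readily, width and signal are not independent of how the regions were chosen.

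**Figure D1:**
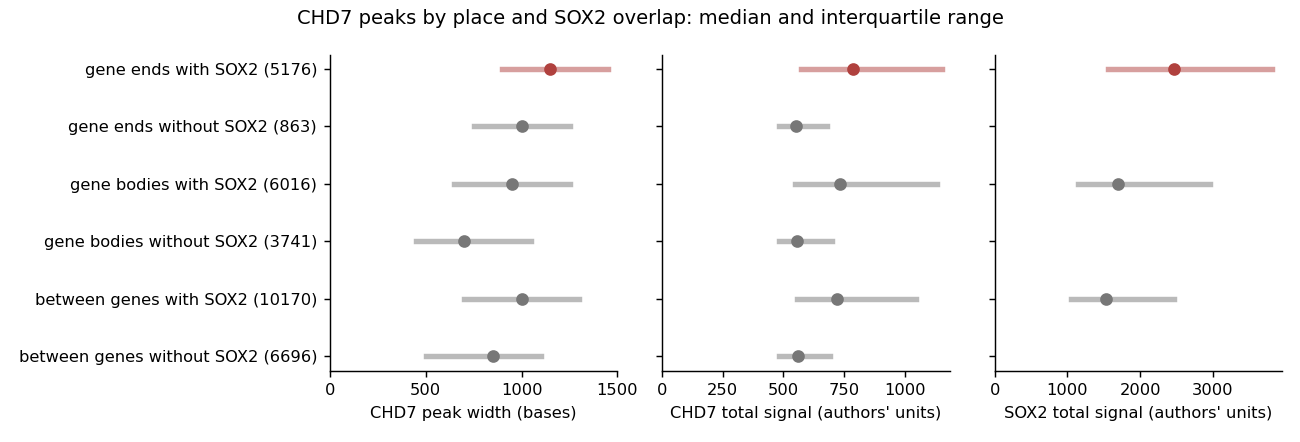
Median (point) and interquartile range (bar) of CHD7 peak width, CHD7 total signal and, where there is SOX2, the total signal of the strongest SOX2 peak overlapped, for 6 classes of CHD7 peaks with the number of peaks in brackets. Gene ends with SOX2 (red) have the highest medians in all panels, at 1150 bases, 788 and 2463.

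The regions were a small share of the weakest CHD7 peaks and a larger share of the strong ones, with a drop at the very top. With the CHD7 peaks put into 10 equal classes by total signal, low to high, they made up 9.74% (8.74% to 10.8%) of class 1, 27.0% (25.5% to 28.5%) of class 9 and 21.5% (20.1% to 23.0%) of class 10. SOX2 signal went with CHD7 signal inside the group. In 4 equal classes by CHD7 total signal, low to high, the median SOX2 total was 1759, 2053, 2610 and 4413. Across the 5176 regions Spearman's rho between both totals was 0.517, against 0.438 in gene bodies and 0.426 between genes, and on signal per base 0.482, 0.508 and 0.482. These correlations are descriptions across peaks that share libraries and widths, and peaks are not replicates.

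**Figure D2:**
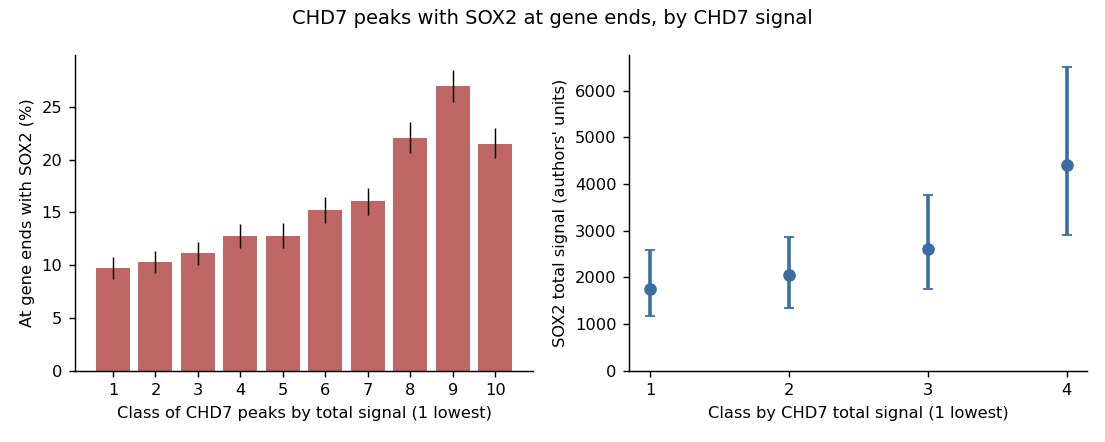
Left, the percentage of CHD7 peaks that lie at gene ends with SOX2, in 10 equal classes of CHD7 total signal, with exact binomial 95% intervals as lines; it runs between 9.74% in class 1 and 27.0% in class 9. Right, median and interquartile range of SOX2 total signal in the regions in 4 equal classes of their CHD7 total signal, with medians between 1759 and 4413.

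SOX2 at these gene ends was strong and wide for a SOX2 peak. A single SOX2 peak was met in 4845 of the 5176 regions, or 93.6%, and it covered a median of 80.6% of the CHD7 peak, against 75.0% in gene bodies and 70.8% between genes. The strongest SOX2 peak overlapped had a median total of 2463 (interquartile range 1554 to 3819) and a width of 1000 bases. In gene bodies with CHD7 it was 1701 and 750 bases, and between genes 1525 and 700 bases. SOX2 peaks without CHD7 had a median total of 938, or 1114 at gene ends. A wider SOX2 peak meets a CHD7 peak more readily, and the strongest one met was used. SOX2 totals and widths are therefore not independent of how the regions were chosen. The highest SOX2 signal differed less, with medians of 9 steps at the regions, 8 in gene bodies, 8 between genes and 5 in SOX2 peaks without CHD7. The sites of highest signal of both proteins shared a base in 1595 regions, or 30.8% (29.6% to 32.1%), close to the 30.1% of CHD7 peaks with SOX2 at other places. The gap between them had a median of 125 bases (50 to 300), against 125 (50 to 325) in gene bodies and 150 (50 to 350) between genes.

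The rule takes either end of a gene, and nearly all genes had the peak at the start. Of 21627 protein-coding genes 5896 had such a region at an end, which is 27.3%, and strand was known for 17273 genes in the promoter table used here. Among 4833 of those with a region, 4553 had it at the end that holds the start, or 94.2% (93.5% to 94.8%), and 280 had it at the other end alone. Of these 280 genes, 115 had a start of some protein-coding gene within 1 kb of the peak. At both ends it was present in 314 genes. A start lay inside the peak itself in 3547 of 5176 regions, or 68.5%, against 45.2% of CHD7 peaks at gene ends without SOX2. In gene bodies it was 6.73% with SOX2 and 1.34% without it. Peaks in gene bodies lie by definition more than 1 kb from any outer gene border, so only starts inside a gene could count there. Starts of genes not in the table would add to these shares. Of the 4130 regions whose genes were all in the table, 3802 were within 1 kb of a start, or 92.1%. Those near a start had a median CHD7 total of 792 and SOX2 total of 2522, and the 328 not near one had 729 and 1818.

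The highest CHD7 signal sat just before the start and SOX2 signal almost on it. In 3938 regions within 1 kb of a start, the middle of the site of highest CHD7 signal was at a median of -47.5 bases from the nearest start, minus meaning upstream (interquartile range -184 to 121). For SOX2 it was -22.5 bases (-184 to 143). Within 250 bases of the start lay 68.8% of the CHD7 sites and 66.5% of the SOX2 sites. Downstream of the start lay 41.7% (40.2% to 43.3%) of the CHD7 sites and 46.1% (44.6% to 47.7%) of the SOX2 sites. The difference in medians is smaller than the 50 bases by which peak borders are spaced.

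**Figure D3:**
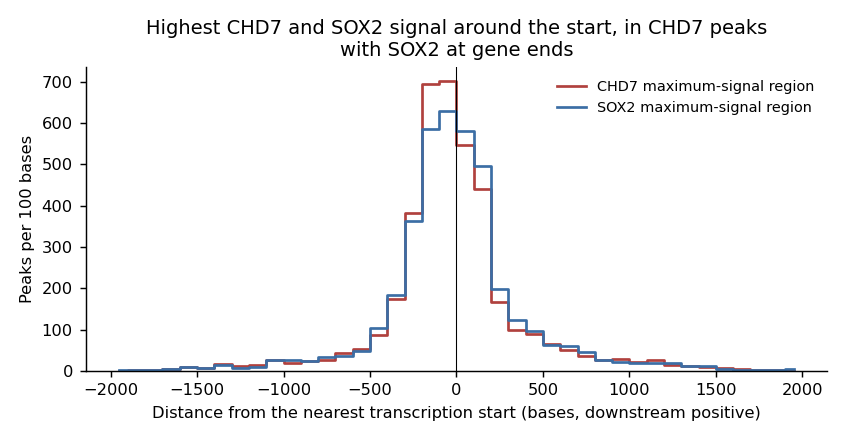
Number of regions per 100 bases by the distance of the site of highest CHD7 signal (red) and SOX2 signal (blue) from the nearest transcription start, in 3938 regions within 1 kb of a start. Both curves peak at the start, with medians of -47.5 and -22.5 bases.

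Gene layout went with the presence of a region. A region lay at the ends of 1 gene in 4176 cases, of 2 genes in 957 and of 3 or more in 43. Genes whose start lay within 1 kb of the start of a neighbour on the opposite strand, a divergent pair, had a region at the start in 697 of 1154 cases, or 60.4% (57.5% to 63.2%), against 23.9% (23.3% to 24.6%) of other genes. A pair gives a peak more than 1 gene to count for, so the genes of a pair are not independent. Genes with a region were longer, with a median of 22.9 kb against 15.5 kb for the rest. The regions also stood more alone than other CHD7 peaks. Another CHD7 peak lay within 10 kb of 30.2% of them, against 39.4% at gene ends without SOX2, 41.9% in gene bodies with SOX2 and 52.8% between genes with SOX2. The value for gene bodies without SOX2 was 37.7%, and between genes without SOX2 43.4%.

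The median CHD7 total was highest where a region held a gene end. It was similar just inside and just outside the borders of the rule. Regions that held a gene end numbered 4191, with a median CHD7 total of 815. Those 1 to 500 bases from an end numbered 592 with 676, and those over 500 and up to 1000 bases away 393 with 660.4. Just outside, 281 CHD7 peaks with SOX2 lay over 1000 and up to 1500 bases from an end, with a median of 692. In 33 regions only 1 to 100 bases were shared with SOX2 (median CHD7 total 547), and 50 CHD7 peaks at gene ends missed a SOX2 peak by up to 100 bases (542).

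The 2 strongest regions covered small RNA genes. The strongest was 38350 bases long on chromosome 8 (123537301 to 123575650), beside Gas8, and covered 22 annotated 5S-type ribosomal RNA genes, with a CHD7 total of 143270 and a SOX2 total of 142947. The next, on chromosome 6 (47650301 to 47687050), covered Rn4.5s, a small RNA gene, and 6 predicted genes including Gm40363, with totals of 101785 and 390342 and the highest SOX2 total of all regions. It was followed by Mid1, a gene at the edge of the pseudoautosomal part of the X, with 18281 for CHD7 and 88349 for SOX2. The region between Pxn and Sirt4 held 2 small nuclear RNA genes and had totals of 10102 and 17330, and that at Gtf3c6 held Rnu3a and had 8722 and 10204. Of the 100 strongest regions by CHD7 total 11 covered a small RNA gene, against 78 of the other 5076, or 1.54% (1.22% to 1.91%). Total signal grows with width, and a wider peak covers a gene more readily, so rank and cover are not independent. Over all regions the share was 1.72%, against 1.32% of CHD7 peaks between genes with SOX2, the highest of the other classes. Arhgap25 (13203 for CHD7), Zbtb20 (10106) and Asmt (7592), all among the strongest 10, covered none. How reads from repeated copies were placed was not given in the sources used here, so totals over repeated genes are uncertain. MicroRNA genes lay in 35 regions, or 0.676% (0.471% to 0.939%), against 0.116% of CHD7 peaks at gene ends without SOX2, 0.0997% in gene bodies with SOX2 and 0.160% without it, and 0.0492% between genes with SOX2 and 0.0299% without it. Transfer RNA genes lay in 29 regions, or 0.560% (0.376% to 0.804%), and in 0.629% of CHD7 peaks between genes with SOX2, the highest of the other classes.

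The gene lists that follow are read against the 27.3% of all protein-coding genes with a region at an end and the median CHD7 total of 788 over all regions. Genes of the ear's own regulators stood above that share, as did several lists of general cell function given further on. Lists were not matched to all genes by CpG number, and they were chosen with earlier results of these data known. A region was present at 19 of 32 otocyst regulators, or 59.4%, with medians of 840.3 for CHD7 and 1803 for SOX2. Irx5, an Iroquois homeobox gene, had a CHD7 total of 3575 and a SOX2 total of 9940, and its neighbour Irx3 had 993 and 5630. The T-box gene Tbx2 had 2 regions, the better ranked with 947 and 3607. Neither list had a peak at an end of Pax2 or Pax8, which act in the otic placode. Of 26 prosensory and hair cell genes 16 had a region, or 61.5%. Myo6 (2072 for CHD7 and 8328 for SOX2) had the best joint rank, and both sites of highest signal shared a base there. Hey2, a Notch effector, had 1207 and 7624. Sox21 and Isl1, transcription factors of the sensory and neural lineage, each had regions at both ends. Atoh1 and Pou4f3, which drive hair cell formation and maturation, had none, Atoh1 with a SOX2 peak alone.

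Sox2 itself had 2 regions at its start, one of the CHD7 peaks ending just before it and the other beginning just after it. The first (chromosome 3, 34648751 to 34649950) had a CHD7 total of 478, near the lowest in the list, 433, and the second (34650151 to 34651450) had 993. Both met the same SOX2 peak, with a total of 3138. Chd7 had no region, with a SOX2 peak but no CHD7 peak at an end.

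Semicircular canal genes had a region in 13 of 22 cases, or 59.1%, among them Gli3, a transducer of hedgehog signals (2482 for CHD7 and 5102 for SOX2), and Lrig1 (1785 and 4105), while Bmp2 and Ntn1 had SOX2 alone. Otic neurogenesis genes were close to the share of all genes, with 7 of 25, or 28.0%. Hes6 had the best rank there (1330 for CHD7 and 5659 for SOX2), followed by Isl1, and the neuronal factors Neurod1 and Neurod4 had a SOX2 peak alone. Of the SOX family 13 of 19 had a region, or 68.4%, with a median CHD7 total of 1116. Sox8 had the best rank, with 1681 for CHD7 and 7184 for SOX2, and Sox3 and Sox5 had SOX2 alone. Deafness and CHARGE-related genes had 12 of 31, or 38.7%, led by Kdm6a (2441 and 8621) and by Ezh2 (1485 and 3988), the Polycomb methyltransferase.

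Signalling genes are given by pathway, and differences between pathways were not tested. In the Notch pathway 17 of 27 genes had a region, or 63.0%: the receptor genes Notch1 to Notch4, the ligand gene Jag1 (1061 for CHD7 and 3050 for SOX2), Lfng (861 and 3577), whose product adds sugars to the receptors, and effectors such as Hes1, Hes5, Hey1 and Hey2. The ligand genes Dll1 and Dll3 had none. In the FGF pathway 14 of 23 had one, or 60.9%. Downstream of the receptors acts Dusp6, with a CHD7 total of 2669 and a SOX2 total of 7917. The ETS factors Etv1 (1375 and 8416) and Etv5 (1211 and 4574) also act there. Among ligand genes Fgf8 and Fgf9 had a region, and Fgf3 and Fgf10 had SOX2 alone. BMP genes had 15 of 30, with the inhibitor Smad6 (2528 and 2522), the target Id3 (2550 and 3167) and the receptor gene Bmpr2 (1262 and 2698). The ligand genes Bmp4, Bmp6 and Bmp7 had a region, and Bmp2 and Bmp5 had SOX2 alone. WNT genes had 15 of 35, or 42.9%, led by the kinase gene Gsk3b (3566 and 10937) and the receptor gene Fzd2 (2423 and 4780), and Wnt1 had neither peak. SHH genes had 7 of 15, led by the co-receptor gene Gas1 (2669 and 6803), and Shh itself had neither peak. Retinoic acid genes had 6 of 18, or 33.3%: Rdh10, a retinol dehydrogenase gene, shares its region (2100 and 9002) with the ribosomal protein gene Rpl7, and the synthetic enzyme gene Aldh1a2 had SOX2 alone.

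Genes of general cell function had some of the highest shares. Replication-dependent histone genes, which are transcribed in S phase, had a region in 53 of 58 cases, or 91.4%, in 37 regions with a median CHD7 total of 1353 and a median SOX2 total of 4692. H4c18, H2ac24 and H4bc24 lie on 1 region of chromosome 13 (21831751 to 21835000) with totals of 4208 and 25481. The histone genes stand close together, and a stretch of chromosome 13 (23530501 to 23582400) had 11 regions at 14 histone genes, among them the linker histone gene H1f3, which is not in that list. Heat shock and chaperone genes had 21 of 25, or 84.0%, among them Hsp90b1 (2473 for CHD7 and 6510 for SOX2) and the divergent pair Hspd1 and Hspe1, which share a region (1339 and 5278). Splicing factor genes had 24 of 35, or 68.6%, with Hnrnpa2b1 (3165 and 5806) first in rank. Translation factor and tRNA synthetase genes had 22 of 38, or 57.9%, cytosolic ribosomal protein genes 41 of 83, or 49.4%, and respiratory chain genes 17 of 34. With the 10000 strongest peaks of each list, ribosomal protein genes (8.43%) and respiratory chain genes (5.88%) were below the share of all genes (9.18%). Cell cycle genes had 19 of 35, or 54.3%, among them Mcm4 (1904 and 6334) of the replicative helicase and Cdk4 (1453 and 6979). Immediate early genes, which are induced within minutes of a stimulus, had 15 of 26, or 57.7%. Jun (3684 and 15658) and Egr1 (2541 and 6128) were the strongest of those named by CHD7 total. Chromatin remodeler genes had 18 of 38, or 47.4%, including Ep400 (2423 and 4193) and Smarca4 (1685 and 4398), and Chd2 had neither peak. That list also counts Kdm6a and Ezh2, whose products modify histones and which are in the deafness and CHARGE-related list too. Proteasome genes (10 of 31, or 32.3%), mitochondrial ribosomal protein genes (26 of 78, or 33.3%), Zfp zinc finger genes (114 of 394, or 28.9%), forkhead genes (13 of 44, or 29.5%) and solute carrier genes (89 of 364, or 24.5%) were near the share of all genes.

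Genes of tissues next to the otocyst had regions at shares on either side of that of all genes. A region was present at 8 of 22 hindbrain genes, or 36.4%, at 7 of 20 genes of periotic mesenchyme, or 35.0%, at 4 of 17 of surface ectoderm, or 23.5%, and at 3 of 15 of neural crest and glia. The lists share genes with those above. Lmx1b, Zic1 and Irx3 of the hindbrain list are also among the otocyst regulators, and Prrx1 of periotic mesenchyme among the semicircular canal genes. Pou3f4 of periotic mesenchyme and Pax3 and Sox10 of neural crest are also among the deafness and CHARGE-related genes. The median SOX2 total was 1407 for the hindbrain list, 1290 for periotic mesenchyme, 1290 for surface ectoderm and 1994 for neural crest and glia, against 2463 over all regions. The lists of otocyst regulators (1803) and otic neurogenesis genes (1539) were also below that median. Pou3f4, a gene of periotic mesenchyme, had 683 for CHD7 and 1349 for SOX2, and Cdh1 of the ectoderm had 583 and 938. Lists of more distant tissues and of large tissue-restricted families had fewer. There was a region at 2 of 17 muscle genes, 1 of 15 blood genes and 1 of 16 liver genes. For endothelial genes it was 0 of 16 (exact binomial upper limit 20.6%), and 10 of these 16 had a SOX2 peak at an end. Olfactory and vomeronasal receptor genes had 11 of 1459, or 0.754%, keratin genes 1 of 109, clustered protocadherin genes 1 of 55 (with CHD7 at an end of 21 and SOX2 at an end of 24), potassium channel genes 8 of 92 and collagen genes 4 of 44. Col11a1, a cartilage and otic capsule collagen gene, was the strongest of the collagens with 1722 for CHD7 and 7829 for SOX2. Hox genes set position along the body axis. Of 39 Hox genes 20 had CHD7 at an end, 13 had SOX2 there and 4 had a region, or 10.3%. Those with a region were all in the Hoxa cluster: Hoxa2, Hoxa6, Hoxa9 and Hoxa10. The shares of all genes with CHD7 or with SOX2 at an end are not given here. Such counts for endothelial, protocadherin and Hox genes therefore have no background, and whether both proteins met less often there was not tested. At Hoxa10 the SOX2 peak covered 3.33% of the CHD7 peak.

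**Figure D4:**
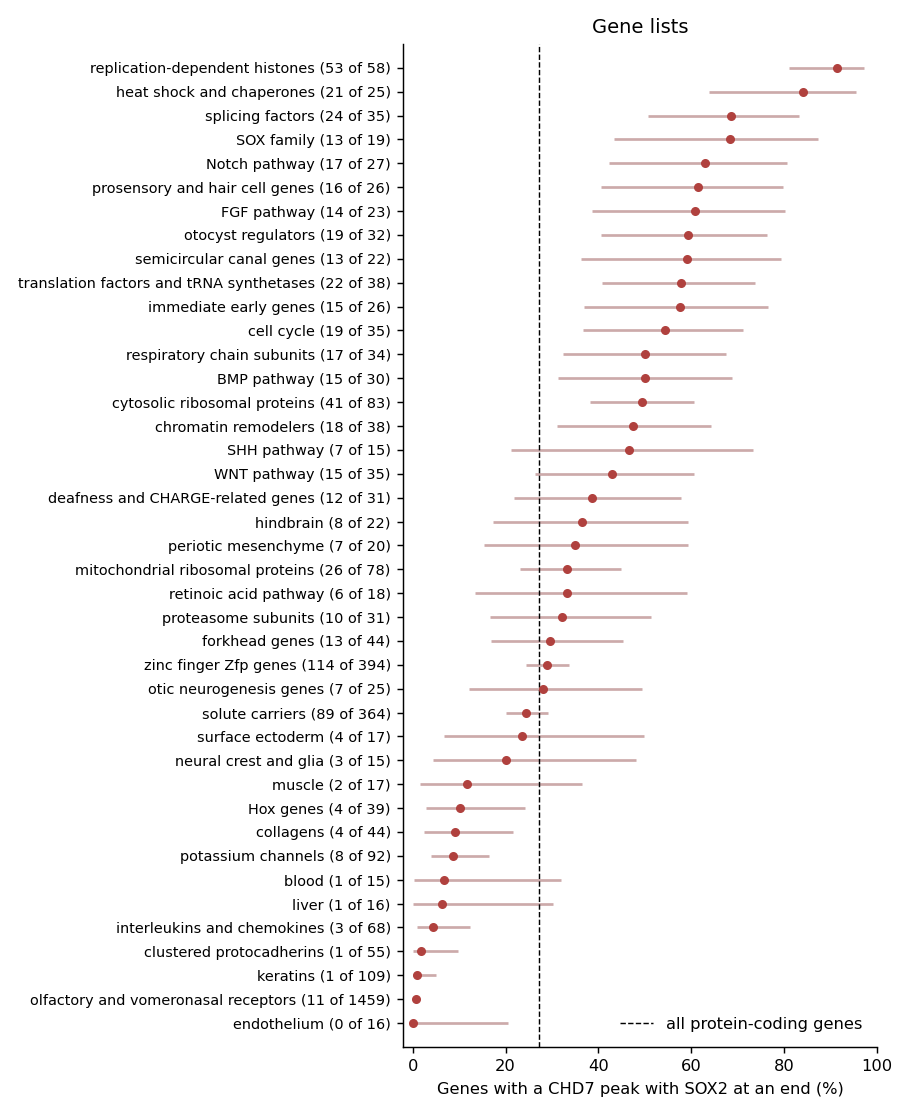
Percentage of genes with a region at an end in each of 41 gene lists (points) with exact binomial 95% intervals, which cover counting error only and treat neighbouring genes as independent. The dashed line is the share of all protein-coding genes, 27.3%; histone genes (91.4%) are at the top and endothelial genes (0 of 16) at the bottom.

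The X chromosome had few regions. They were 91 of its 1572 CHD7 peaks, or 5.79% (4.69% to 7.06%), against 12.3% to 22.8% on the autosomes, and 100 of its 966 protein-coding genes, or 10.4%, against 22.4% to 34.3%. Promoters on the X held fewer CpG, with a median of 8 against 14 on autosomes. Among promoters with 15 or more CpG, 18.7% (14.4% to 23.6%) on the X were in a region and 41.0% (40.0% to 42.0%) on autosomes. In the same promoters another CHD7 peak was found at 4.42% on the X and 8.15% on autosomes. A SOX2 peak without CHD7 was found at 30.6% on the X and 24.9% on autosomes. That class holds only promoters without a CHD7 peak, so its share does not give how common SOX2 was. The sexes of the pooled embryos are not given in the labels.

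The promoters under these regions were rich in CpG. Of 21044 promoter windows of 300 bases, 4744 from 4153 genes overlapped a region, 1064 another CHD7 peak, 4183 a SOX2 peak alone and 11053 neither. The median number of CpG was 24 in the regions, 22 with another CHD7 peak, 18 with SOX2 alone and 5 with neither, and the median G and C content was 63.7%, 62.3%, 59.7% and 50.7%. Promoters with 6 CpG or fewer made up 2.21% of those in regions and 58.4% of those with neither peak. Seen from the promoters, 0.674% (0.465% to 0.946%) of those with 0 to 3 CpG were in a region, 16.9% (15.8% to 18.2%) of those with 7 to 14, 44.4% (42.7% to 46.1%) of those with 22 to 29 and 40.5% (38.8% to 42.2%) of those with 30 or more. SOX2 alone was less graded, at 7.87% of promoters with 0 to 3 CpG, 24.1% of those with 22 to 29 and 24.1% of those with 30 or more. The classes exclude each other, so SOX2 alone counts only promoters left once those with a CHD7 peak are taken out. Its shares therefore do not describe all promoters with SOX2.

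**Figure D5:**
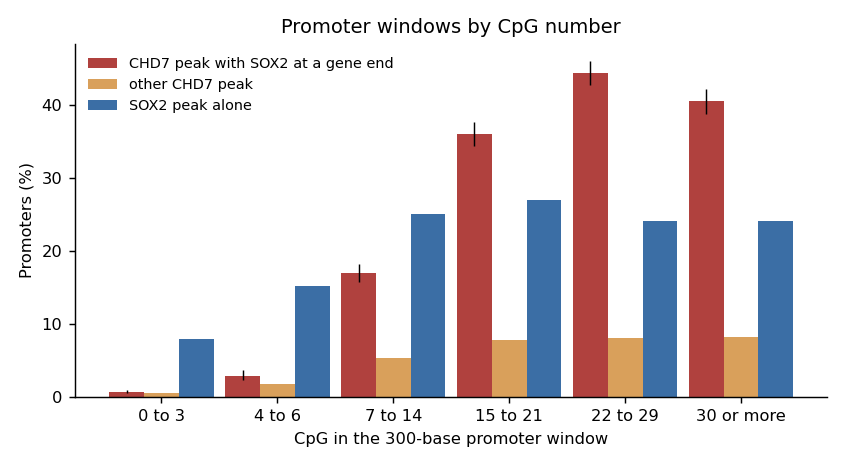
Percentage of promoter windows that overlap a CHD7 peak with SOX2 at a gene end (red, with exact binomial 95% intervals), another CHD7 peak (yellow) or a SOX2 peak alone (blue), by the number of CpG in the 300-base window. The red bars run between 0.674% and 44.4% and the blue ones between 7.87% and 27.0%.

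Shares of short words differed between the classes of promoters, and these differences changed with CpG number. Each word was searched on both strands, and a match is no proof of a binding site. The GC box GGGCGG, bound by SP and KLF factors, was in 74.5% (73.3% to 75.8%) of promoters in regions, 68.2% with another CHD7 peak, 58.2% with SOX2 alone and 28.2% with neither, and in 46.7% of all promoters. The ETS word CCGGAAG was in 18.8% of those in regions and 11.7% of all. The TATA word TATAAA was in 4.87% of those in regions and 12.7% of all, and the AP-1 word TGANTCA in 3.10% and 7.04%. Either SOX word, ACAAAG or ACAATG, was in 15.9% (14.9% to 17.0%) of promoters in regions, 19.7% with another CHD7 peak, 22.1% with SOX2 alone and 30.9% with neither, against 25.2% of all. The order of the classes changed with CpG number: among promoters with 22 or more CpG, ACAAAG was in 8.07% of those in regions, 7.21% with another CHD7 peak, 10.2% with SOX2 alone and 8.73% with neither. Promoters in regions with a SOX word had a median SOX2 total of 2698, and those without one 2610. The promoters printed above, chosen with their values known, all exceed both medians, with SOX2 totals of 3138 at Sox2 and 8621 at Kdm6a, which hold a SOX word, and 8328 at Myo6 and 15658 at Jun, which do not.

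The CCAAT box is bound by NFY. It was in 44.2% (42.8% to 45.6%) of promoters in regions, 39.3% with another CHD7 peak, 35.8% with SOX2 alone and 37.0% with neither, and in 38.5% of all promoters. Among promoters with 7 to 21 CpG the shares were 51.2% in regions, 42.7% with another CHD7 peak, 39.3% with SOX2 alone and 36.1% with neither. With 22 or more CpG they were 39.7% in regions, 35.5% with another CHD7 peak, 29.3% with SOX2 alone and 23.8% with neither. With 0 to 6 CpG, where 105 promoters were in regions, they were 45.7% in regions, 46.4% with another CHD7 peak, 41.0% with SOX2 alone and 40.8% with neither. Of the 6 promoters printed, Sox2, Myo6, Jun and Dusp6 hold a CCAAT box, at positions -46, -110, -65 and -46 from the start in that order.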

How the data were processed

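Per the labels' protocols, cells of 34 pooled otocysts were split for CUT&Tag with anti-CHD7, anti-SOX2 or no primary antibody, 1 library each, with paired reads of 150 bases. Per the submitters' processing notes the tools were Bowtie2, deepTools and SEACR and the build mm10; their versions and settings, and what was done with the control and with duplicates, were not given in the sources used here. As deposited, the signal of each peak is the authors' coverage summed over its bases (total) and its highest coverage, without a statement of its scaling. Signal was therefore compared only within a list. Total signal grows with width. The depth of sequencing is unknown, so precision is limited to what peak and gene numbers give.

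Gene ends and promoter windows came from RefSeq (GRCm38.p6). The promoter table used here gave strand for 17273 of 21627 protein-coding genes. A gene was at a peak when an outer border lay within 1 kb, and each promoter window was classed by the first match among region, other CHD7 peak, SOX2 alone and neither. Where several SOX2 peaks overlapped, the strongest was used. Members and gene lists were chosen with earlier results of these data known. With 1 library per antibody no test was run. Intervals are exact binomial (Clopper-Pearson) at 95%. Genes were named by a rule: Chd7 and Sox2, the 10 regions of highest CHD7 total, of highest SOX2 total and of best joint rank, and from each of 41 lists up to 4 genes with a region by the worse of both ranks and up to 2 without one in list order. The text names a subset, and further list genes and the 6 printed promoters were chosen after their values were seen. The rule for members was tested on simulated peaks. Other windows, overlap rules, peak sets and CpG classes were tried as alternatives. Tables were handled with pandas 2.3.3 and numpy 2.4.6, intervals came from scipy 1.17.1 and plots from matplotlib 3.10.9, under Python 3.11.15.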

Additional observations from a re-analysis of the deposited data

How the results depend on the processing

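The number of regions and of genes depended on which peaks were counted. Against 5176 regions at 5896 genes there were 1595 at 1893 when the sites of highest signal had to share a base, 3180 at 3800 with the stronger 50% of each list, and 1614 at 1985 with the 10000 strongest peaks of each list. Other windows, 50% cover and a SOX2 list of the length of the CHD7 list stayed within 1.5 times. The share of genes with the peak at the start, 94.2%, was 95.9% with 500 bases, 92.0% with 2 kb and 91.9% with shared sites of highest signal. The share of regions with shared sites, 30.8%, was 32.2% with 50% cover, 32.9% with the stronger 50% and 33.2% with the 10000 strongest. The ratio of median total signal to other CHD7 peaks, 1.24, was 1.30 with shared sites, 1.15 with the stronger 50%, 1.12 with the 10000 strongest and 1.38 with the shorter SOX2 list. It was 0.972 per base, a reversed order that comes with the greater width of the regions, and 1 for the highest signal. The share of promoters with ACAAAG in regions minus that in all promoters was -6.06 percentage points, and -8.72, -1.40 and -0.602 in promoters with 0 to 6, 7 to 21 and 22 to 67 CpG. For the GC box the difference was 27.9, and 16.1, 10.3 and 1.09 in those classes. Of 41 gene lists 29 were on the same side of the share of all genes in all 7 other settings. The others were otic neurogenesis (which turned in all 7), forkhead, periotic mesenchyme, proteasome, retinoic acid, Zfp, cytosolic ribosomal, respiratory chain, hindbrain, muscle, solute carrier and surface ectoderm genes. No paired analysis was possible because each antibody has 1 library and no result comes from a test.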

Other observations

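Some groups of regions lay close together without being known gene clusters of the ear. On chromosome 4 (88773051 to 88807100) 11 regions stood at 12 genes of the interferon zeta family, among them Ifnz and Gm13276, a repeated family in which copies are alike. On chromosome 8 Gm51572, a predicted gene, had 4 regions. Joined at distances of up to 10 kb, 4533 regions stood alone and 643 fell in groups of at least a pair, with 11 in the largest. Among receptor genes silent in most tissues, Vmn1r48 had a CHD7 total of 3762 and a SOX2 total of 6187, and Olfr279 had 3202 and 5630, so the few regions in that family were not all weak. Whether reads of repeated copies contribute to these values was not tested.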
